A study of Mus musculus with 4 samples.

Results

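Transcripts of the constitutive proteasome subunits were examined in cultured colonic epithelial cells. The members were all genes of the table named Psma1 to Psma7, Psmb1 to Psmb7, Psmc1 to Psmc6 or Psmd followed by a number, 34 of the 17604 genes listed. They comprise 14 genes of the core particle, 17 of the regulatory particle and 3 encoding chaperones that assemble its base. Epithelial cells isolated from mouse colon, labelled as C57BL/6, had been plated on Matrigel for 24 h. The groups were Stat4-/- with 20 ng/ml leukemia inhibitory factor (LIF, a cytokine that signals through gp130), Stat4-/- control, wild-type LIF and wild-type control. Each group has 1 library, so a difference between 2 libraries has no replicate check. The labels do not give how long a sample was exposed to LIF, nor the age or number of animals. All values are FPKM, fragment counts scaled to transcript length and to the mapped fragments of the library, as deposited by the authors.

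The proteasome degrades proteins that have been tagged with ubiquitin. Its core particle is a barrel of stacked alpha and beta rings, with the cutting sites on the inner face of the beta rings. A regulatory particle caps the barrel. Its base holds a ring of ATPases that unfold the substrate, and its lid holds the enzyme that removes the ubiquitin chain. In cells exposed to interferon, inducible catalytic subunits can take the place of the constitutive ones.

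Stat4, the deleted gene, was measured at 2.98 FPKM in Stat4-/- LIF and 2.01 FPKM in Stat4-/- control, against 20.5 FPKM in wild-type LIF and 19.7 FPKM in wild-type control. The Y-linked gene Ddx3y stood at 0.070 and 0.050 FPKM in the Stat4-/- libraries, against 6.34 and 5.86 FPKM in the wild-type libraries, so animal sex and genotype cannot be told apart. All 13 markers of colonic epithelium were above 0 in every library. Their summed level was 8391 FPKM in Stat4-/- LIF, 8946 FPKM in Stat4-/- control, 9311 FPKM in wild-type LIF and 9527 FPKM in wild-type control. Depth, estimated from the steps between low FPKM values, was about 21.8 to 27.5 M fragments per library (M, mega).

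All 34 members were expressed in all 4 libraries, and all passed the requirement of a mean of at least 1 FPKM. Together they made up 0.959% of the summed FPKM in Stat4-/- LIF and 0.917% in Stat4-/- control, against 0.896% in wild-type LIF and 0.871% in wild-type control. The core genes lay between 92.8 and 281 FPKM in the Stat4-/- LIF library, a 3.03-fold range, and between 75.6 and 223 FPKM in the wild-type control library, a 2.95-fold range. Genes of the regulatory particle spanned a narrower range, 76.0 to 163 FPKM in Stat4-/- LIF and 71.1 to 156 FPKM in wild-type control. The assembly chaperone genes stood far below, with Psmd5 at 27.8 to 30.02 FPKM, Psmd10 (gankyrin) at 21.4 to 23.5 FPKM and Psmd9 at 9.33 to 10.9 FPKM over the 4 libraries.

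**Figure D1:**
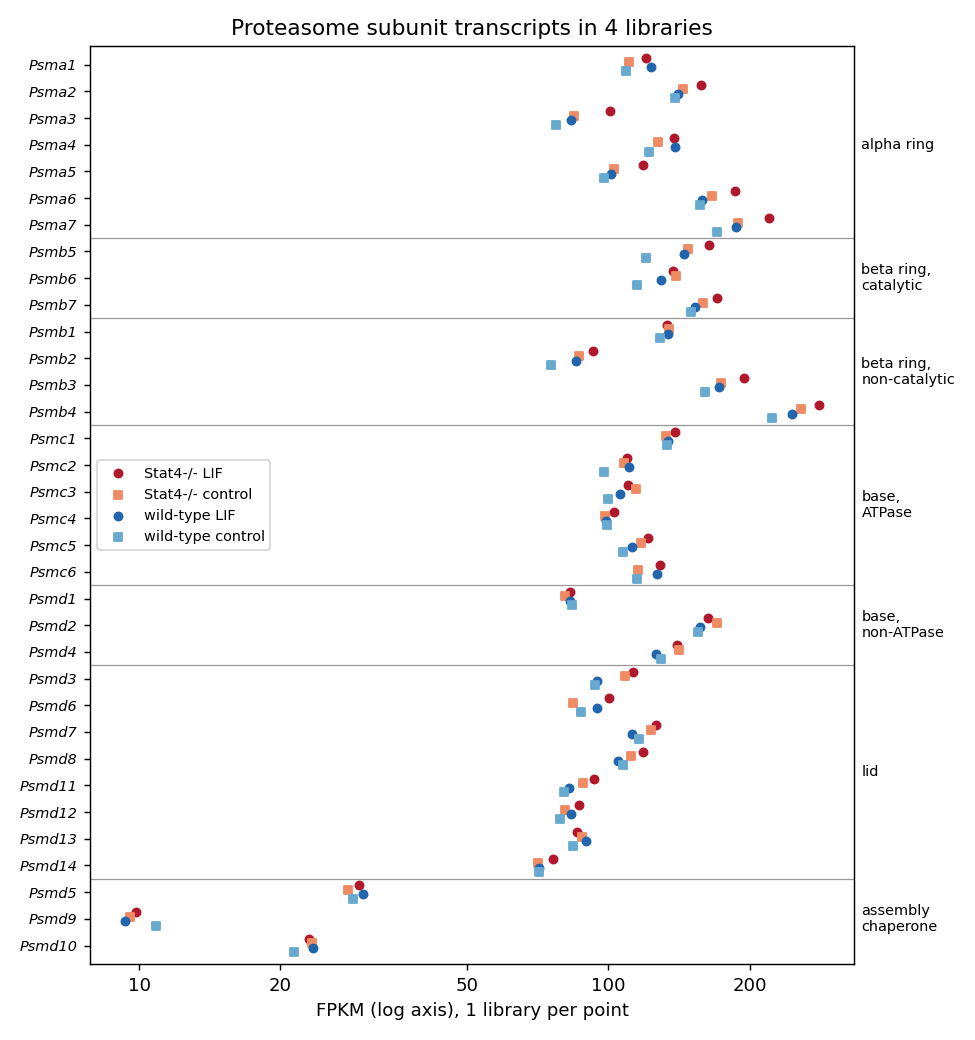
FPKM of each of the 34 members (log axis), with 1 point per library and the members grouped by their place in the particle. Psmb4 has the highest level, up to 281 FPKM, and the 3 assembly chaperone genes lie below the rest at 9.33 to 30.02 FPKM.

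In the alpha ring, which gates entry to the barrel, Psma7 had the highest mean level and Psma3 the lowest. Psma7 was at 220.2 and 189 FPKM in Stat4-/- LIF and control, against 187 and 170.5 FPKM in wild-type LIF and control. Psma3 was at 101.03 and 84.5 FPKM in Stat4-/- LIF and control, against 83.1 and 77.3 FPKM in wild-type LIF and control. For both genes the Stat4-/- LIF library was highest and the wild-type control library lowest.

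The beta ring carries the peptidases. Psmb5, whose product holds the chymotrypsin-like site, was at 164 and 148 FPKM in Stat4-/- LIF and control, against 145 and 120.2 FPKM in wild-type LIF and control. Psmb6, which encodes the caspase-like subunit, was at 138 and 139.6 FPKM in Stat4-/-, against 129 and 115 FPKM in wild type, LIF before control. Psmb7, which encodes the trypsin-like subunit, was at 171 and 159 FPKM in Stat4-/-, against 153 and 149.8 FPKM in wild type in the same order. Both Stat4-/- libraries were above both wild-type libraries for each of these 3 catalytic genes, as for 24.4% of all genes tested. Among the beta genes without a cutting site, Psmb4 was the most abundant of all members (281 and 257 FPKM in Stat4-/- LIF and control, against 246 and 223 FPKM in wild-type LIF and control). Psmb2 was the lowest of the beta ring, at 92.8 and 86.5 FPKM in Stat4-/-, against 85.1 and 75.6 FPKM in wild type, LIF before control.

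The 6 ATPase genes of the base were the most even subgroup with more than 3 members, between 103 and 139 FPKM in Stat4-/- LIF and between 98.0 and 133 FPKM in wild-type control. Psmc1 was highest, at 139 and 133 FPKM in Stat4-/- LIF and control, against 134 and 133 FPKM in wild-type LIF and control. Psmc4 was lowest, at 103 and 98.5 FPKM in Stat4-/-, against 98.7 and 99.3 FPKM in wild type in the same order. For Psmc1 and Psmc4 the genotypes overlap. Of the other base genes, the scaffold gene Psmd2 had the highest level (163 and 170.4 FPKM in Stat4-/- LIF and control, against 157 and 156 FPKM in wild-type LIF and control). The scaffold gene Psmd1 had the lowest, at 80.8 to 83.7 FPKM over the 4 libraries. In the lid, Psmd7 led with 126 and 123 FPKM in Stat4-/-, against 112 and 116 FPKM in wild type, LIF before control. Psmd14, which encodes the deubiquitinating enzyme of the lid, was lowest at 76.0 and 70.7 FPKM in Stat4-/- LIF and control, against 71.1 FPKM in each wild-type library.

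Proteasome genes have promoters of their own on 15 chromosomes, and RefSeq promoter windows (GRCm38.p6, 250 bases before to 50 after the start) matched 28 of the 34 members. Psmb1, Psmb2, Psmb7, Psmc3, Psmd3 and Psmd7 were not matched. The windows below show members of both particles whose values differ in pattern, 3 called in the genotype comparison described next (Psmb5, Psmb4 and Psmd11) and Psmc4, which was not called. Capitals mark TGACNNNGC, the core of the antioxidant response element bound by NRF transcription factors, and CGGAAG, the core of ETS factor sites, each on either strand.
Psmb5: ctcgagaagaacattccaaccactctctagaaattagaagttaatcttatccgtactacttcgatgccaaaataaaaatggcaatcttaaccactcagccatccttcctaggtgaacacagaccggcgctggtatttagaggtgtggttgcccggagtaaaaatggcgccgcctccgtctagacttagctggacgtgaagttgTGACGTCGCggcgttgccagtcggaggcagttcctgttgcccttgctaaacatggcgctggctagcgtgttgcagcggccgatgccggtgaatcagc
Psmb4: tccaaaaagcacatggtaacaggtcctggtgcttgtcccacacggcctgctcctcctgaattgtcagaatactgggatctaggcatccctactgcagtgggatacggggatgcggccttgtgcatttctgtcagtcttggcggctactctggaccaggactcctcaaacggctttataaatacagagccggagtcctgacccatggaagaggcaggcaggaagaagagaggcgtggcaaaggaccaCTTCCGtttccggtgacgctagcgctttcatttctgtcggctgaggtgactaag
Psmd11: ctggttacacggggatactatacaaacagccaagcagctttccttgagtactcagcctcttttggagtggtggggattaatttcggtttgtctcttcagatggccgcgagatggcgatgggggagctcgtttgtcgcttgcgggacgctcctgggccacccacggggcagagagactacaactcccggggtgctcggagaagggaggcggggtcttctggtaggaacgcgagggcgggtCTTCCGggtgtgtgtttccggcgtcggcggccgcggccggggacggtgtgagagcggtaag
Psmc4: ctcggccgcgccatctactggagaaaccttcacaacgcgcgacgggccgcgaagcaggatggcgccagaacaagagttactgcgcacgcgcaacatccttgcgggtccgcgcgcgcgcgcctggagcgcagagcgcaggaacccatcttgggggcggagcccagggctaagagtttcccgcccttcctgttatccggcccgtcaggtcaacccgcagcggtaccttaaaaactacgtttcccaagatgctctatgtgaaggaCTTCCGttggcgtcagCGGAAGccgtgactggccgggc

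These windows are chr14:54617946-54618245 (minus strand) for Psmb5, chr3:94886909-94887208 (minus strand) for Psmb4, chr11:80428365-80428664 (plus strand) for Psmd11 and chr7:28050043-28050342 (minus strand) for Psmc4. The Psmb5 match lies at position -47 from the start, the Psmb4 match at -4, the Psmd11 match at -11 and the Psmc4 matches at 12 and 28. CGGAAG occurred in 17 of 28 members (60.7%), against 18.8% of all 27025 genes of the promoter table. Those genes outnumber the 17604 listed here, and no set matched to the members for expression was compared. By particle CGGAAG was in 13 of 17 regulatory and chaperone genes and in 4 of 11 core genes. TGACNNNGC occurred in 5 of 28 members (17.9%), against 14.0% of all genes, CCAAT in 11 (39.3%), against 41.1%, and TATAAA in 3 (10.7%), against 15.7%. Among members called in the genotype comparison, 5 of 9 with a window held CGGAAG, against 12 of 19 of those not called. A match describes letters in the window and says nothing of binding. Matches of different motifs were counted separately, also where they overlapped.

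The genotype comparison asks which transcripts differ in cells without Stat4. Most proteasome genes stood slightly higher in Stat4-/-. The difference between the core and the regulatory particle was not tested. In a limma fit over all 12274 genes tested, with genotype and treatment as terms, 11 of 34 members rose in Stat4-/- and 0 fell at an adjusted p under 0.05. With 1 library per group, the fit takes the interaction as error, and its p-values do not measure the spread between libraries of a group. Animal sex cannot be told apart from genotype in these calls. Across all genes tested, 7.81% were called higher and 7.68% lower, 15.5% in either direction. Both Stat4-/- libraries lay above both wild-type libraries for 19 of 34 members, against 24.4% of all genes. They lay below both wild-type libraries for 0 of 34, against 28.9% of all genes. The Stat4-/- value was the higher for 27 of 34 members under LIF, against 46.1% of all genes, and for 27 of 34 without LIF, against 48.5%. The changes were small, since 0 of 34 members differed by 0.32 or more on the log2(FPKM + 1) scale either under LIF or without it, limits that 15.2% and 14.5% of all genes passed.

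By place in the particle, 8 of 14 core genes rose, against 7.81% of all genes. Among them were 3 of 7 alpha genes, 2 of 3 catalytic beta genes and 3 of 4 other beta genes. Psmb5 rose by 0.23 on the log2 scale (SE 0.044, limma adjusted p = 0.00437), Psmb4 by 0.20 (SE 0.036, adjusted p = 0.00348) and Psma7 by 0.19 (SE 0.040, adjusted p = 0.00779). Psma3 rose by 0.20 (adjusted p = 0.0186), Psmb6 by 0.18 (adjusted p = 0.0281), Psmb2 by 0.16 (adjusted p = 0.0399) and Psmb3 by 0.14 (adjusted p = 0.0311). Psma6 rose by 0.15 (adjusted p = 0.0390), with 186 and 166 FPKM in Stat4-/- LIF and control, against 159 and 157 FPKM in wild-type LIF and control. Each of these 8 was higher in Stat4-/- under both treatments, which adds no support, since the call rests on the same 4 libraries. Psmb3, a beta gene without a cutting site, was at 194 and 174 FPKM in Stat4-/-, against 172 and 161 FPKM in wild type, LIF before control. The catalytic gene Psmb7 did not pass (0.12, SE 0.041, adjusted p = 0.0713). At the other end of the core, Psma1 had a coefficient of -0.01, and Psma4 and Psmb1 had one of 0.03 each.

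In the regulatory particle, 3 of 17 genes rose, against 7.81% of all genes. Psmd3, a lid scaffold gene, was at 113 and 109 FPKM in Stat4-/- LIF and control, against 94.7 and 93.7 FPKM in wild-type LIF and control. It rose by 0.23 (SE 0.043, limma adjusted p = 0.00409). The lid gene Psmd11 was at 93.4 and 88.5 FPKM in Stat4-/-, against 82.6 and 80.3 FPKM in wild type in the same order, and rose by 0.16 (adjusted p = 0.0355). Psmd4, which encodes a ubiquitin receptor, was at 140.4 and 141 FPKM in Stat4-/-, against 126 and 129.5 FPKM in wild type, and rose by 0.14 (adjusted p = 0.0398). These 3 genes did not overlap between genotypes, but the call rests on the same values. Of all genes, 24.4% had both Stat4-/- libraries above both wild-type libraries and 28.9% had both below. None of the 6 ATPase genes was called, with coefficients from 0.01 to 0.12 and a lowest limma adjusted p of 0.0776 (Psmc5). At an unadjusted p under 0.05, 2 of the 6 were higher in Stat4-/- (Psmc3 and Psmc5), against 14.4% of all genes. No assembly chaperone gene was called either, with limma adjusted p of at least 0.681 and with 0 of 3 at an unadjusted p under 0.05.

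**Figure D2:**
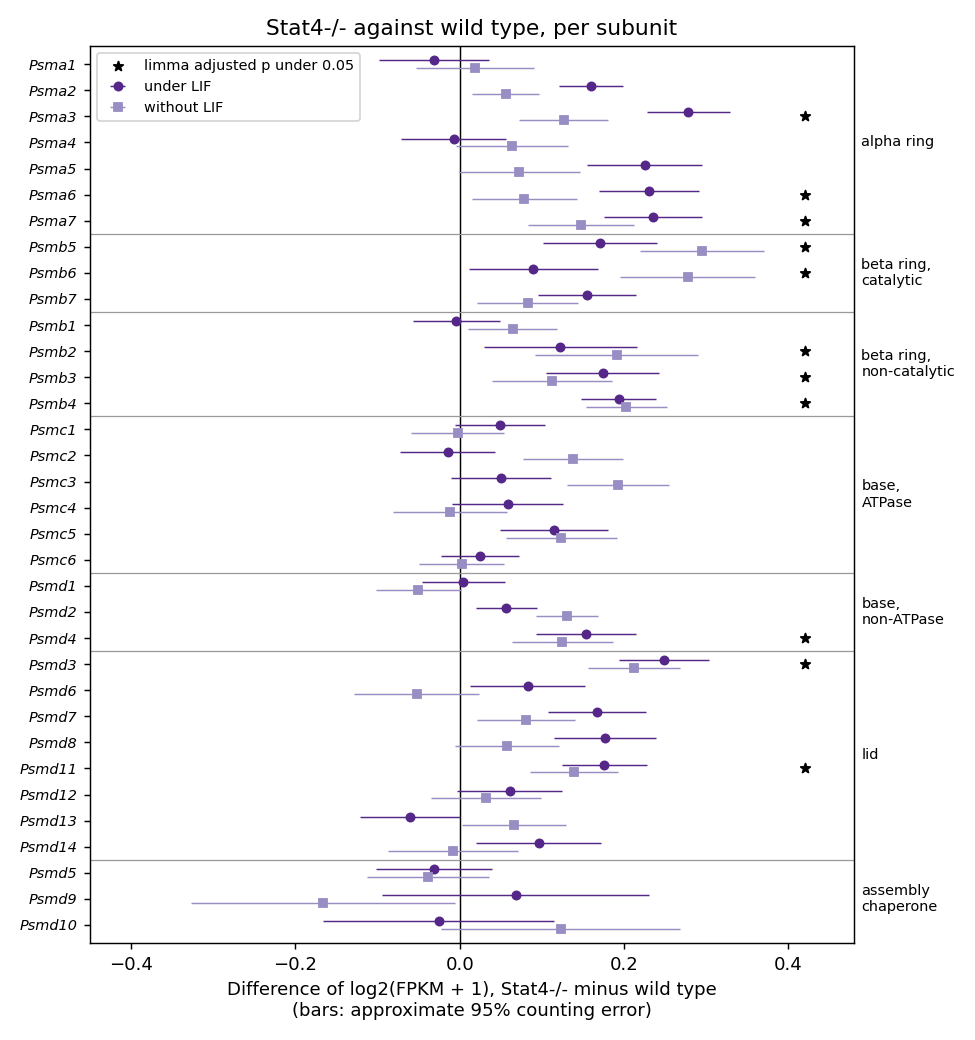
Difference of log2(FPKM + 1) between Stat4-/- and wild type for each member, under LIF (circles) and without LIF (squares). Bars give the approximate 95% counting error of a pair of single libraries, and stars mark the 11 members limma called, 8 of them in the core particle.

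Under LIF, the median difference between Stat4-/- and wild type was 0.17 over the core and 0.06 over the regulatory particle, against -0.02 over all genes tested. Without LIF these medians were 0.10 for the core and 0.07 for the regulatory particle, against -0.01 over all genes. The highest differences under LIF were those of Psma3 (0.28), Psmd3 (0.25) and Psma7 (0.24), and the lowest those of Psmd13 (-0.06), Psma1 (-0.03) and Psmd5 (-0.03). Without LIF, Psmb5 (0.30), Psmb6 (0.28) and Psmd3 (0.21) were highest, and Psmd9 (-0.17), Psmd6 (-0.05) and Psmd1 (-0.05) lowest. Psmd3 was thus the 1 gene among the 3 highest of both comparisons. Psmd13 was at 85.9 and 88.0 FPKM in Stat4-/- LIF and control, against 89.6 and 84.0 FPKM in wild-type LIF and control, so its genotypes overlap. Alpha genes differed more under LIF (median 0.23) than without it (0.07), while for catalytic beta genes the medians were 0.15 and 0.28. With 1 library per group the difference between treatments was not tested.

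The number of members called for genotype depended on the fit. It was 0 of 34 without a mean-variance trend, where 251 of all genes were called, 2 without a filter on low values, 4 with quantile normalization and 6 with the transcript length trend removed. Psmb4 and Psmd3 each passed in 8 of 9 alternative fits, Psmb5 and Psma7 in 7, and Psma6 in 3. In Psmb5, 71.7% of 31-base words also occur in another annotated gene, mostly Gm3375, and 0% occur in another gene of the table. Such words made up 61.0% of Psma5, 32.2% of Psmc1, 31.6% of Psmd2, 21.8% of Psma4, 21.7% of Psmb3 and 20.3% of Psma3. Psma4, Psmb7, Psmc3, Psmd1 and Psmd13 overlap an exon of another listed gene on the opposite strand, so their reads could not be told apart if strand was not used. Summed smooth muscle markers were 220 FPKM in Stat4-/- LIF and 244 FPKM in Stat4-/- control, against 169 FPKM in wild-type LIF and 178 FPKM in wild-type control. All 5 were above 0 in each library. Summed leukocyte markers (12 of 12 above 0) were 74.4 and 69.5 FPKM in Stat4-/-, against 82.9 and 82.5 FPKM in wild type, LIF before control. Fibroblast markers (7 of 7 above 0) summed to 297 and 303 FPKM in Stat4-/-, against 303 and 296 FPKM in wild type. Endothelial markers (4 of 4 above 0) summed to 246 and 234 FPKM in Stat4-/-, against 202 and 211 FPKM in wild type. The part of these cells in the genotype result was not tested, and in such bulk samples fewer cells of a type and less RNA per cell cannot be told apart.

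The LIF comparison asks which transcripts differ with the cytokine in each genotype. Core genes stood slightly higher with LIF, 12 of 14 in Stat4-/- and 14 of 14 in wild type, but no single member passed the test. In the regulatory particle the LIF value was the higher for 13 of 17 genes in Stat4-/- and 11 of 17 in wild type, and the difference from the core was not tested. In the same limma fit 0 of 34 members were called for LIF, against 0.823% of all genes (0.701% higher and 0.122% lower), and the smallest adjusted p was that of Psmb5 (0.21, SE 0.044, adjusted p = 0.0553). At an unadjusted p under 0.05, limma gave 11 members higher and 0 lower, against 8% and 4.52% of all genes. Of those 11, 9 were core genes. The LIF library was above its control in both genotypes for 21 of 34 members, against 28.8% of all genes, and below it in both for 1 (Psmd4), against 29.3%. Both LIF libraries were above both control libraries for 8 of 34, against 12.8% of all genes. The LIF value was the higher for 27 of 34 members in Stat4-/-, against 48% of all genes, and for 27 of 34 in wild type, against 50.9%.

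In Stat4-/- cells the median LIF difference was 0.13 over the core and 0.05 over the regulatory particle, against -0.01 over all genes tested. In wild-type cells it was 0.12 over the core and 0.02 over the regulatory particle, against 0.00 over all genes. All 7 alpha genes had a higher value with LIF in each genotype, against 28.8% of all genes, with medians of 0.17 in Stat4-/- and 0.10 in wild type. The difference exceeded the approximate 95% counting error for 7 of the 7 in Stat4-/- and for 4 in wild type. As sums, the core genes came to 2216 FPKM with LIF and 2022 FPKM without it in Stat4-/-. In wild type they came to 1997 FPKM with LIF and 1845 FPKM without it. Regulatory genes summed to 1897 FPKM with LIF and 1835 FPKM without it in Stat4-/-, and to 1786 and 1742 FPKM in wild type.

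The highest LIF differences in Stat4-/- were those of Psma3 (0.25), Psmd6 (0.25) and Psma7 (0.22). Psmd6, a lid gene, was at 100.5 FPKM with LIF and 84.3 FPKM without it in Stat4-/-, and at 94.8 FPKM with LIF and 87.4 FPKM without it in wild type. The lowest were those of Psmd2 (-0.07), Psmc3 (-0.06) and Psmd13 (-0.04). In wild type Psmb5 (0.27), Psma4 (0.18) and Psmc2 (0.17) were highest, and Psmd9 (-0.20), Psmd7 (-0.05) and Psmd4 (-0.04) lowest. Psma4, an alpha gene, was at 138 FPKM with LIF and 127 FPKM without it in Stat4-/-, and at 138.5 FPKM with LIF and 122 FPKM without it in wild type. The ATPase gene Psmc2 was at 109 FPKM with LIF and 108 FPKM without it in Stat4-/-, and at 111 FPKM with LIF and 98.0 FPKM without it in wild type. The ATPase gene Psmc3 was at 109.9 FPKM with LIF and 114 FPKM without it in Stat4-/-, and at 106 FPKM with LIF and 100.0 FPKM without it in wild type. The approximate 95% counting error of a difference between libraries, from the estimated depths, was 0.04 to 0.16 over the members, with a median of 0.06. It covers counting error only. No member differed by 0.32 or more with LIF in either genotype, a limit that 6.64% of all genes passed in Stat4-/- and 6.13% in wild type.

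**Figure D3:**
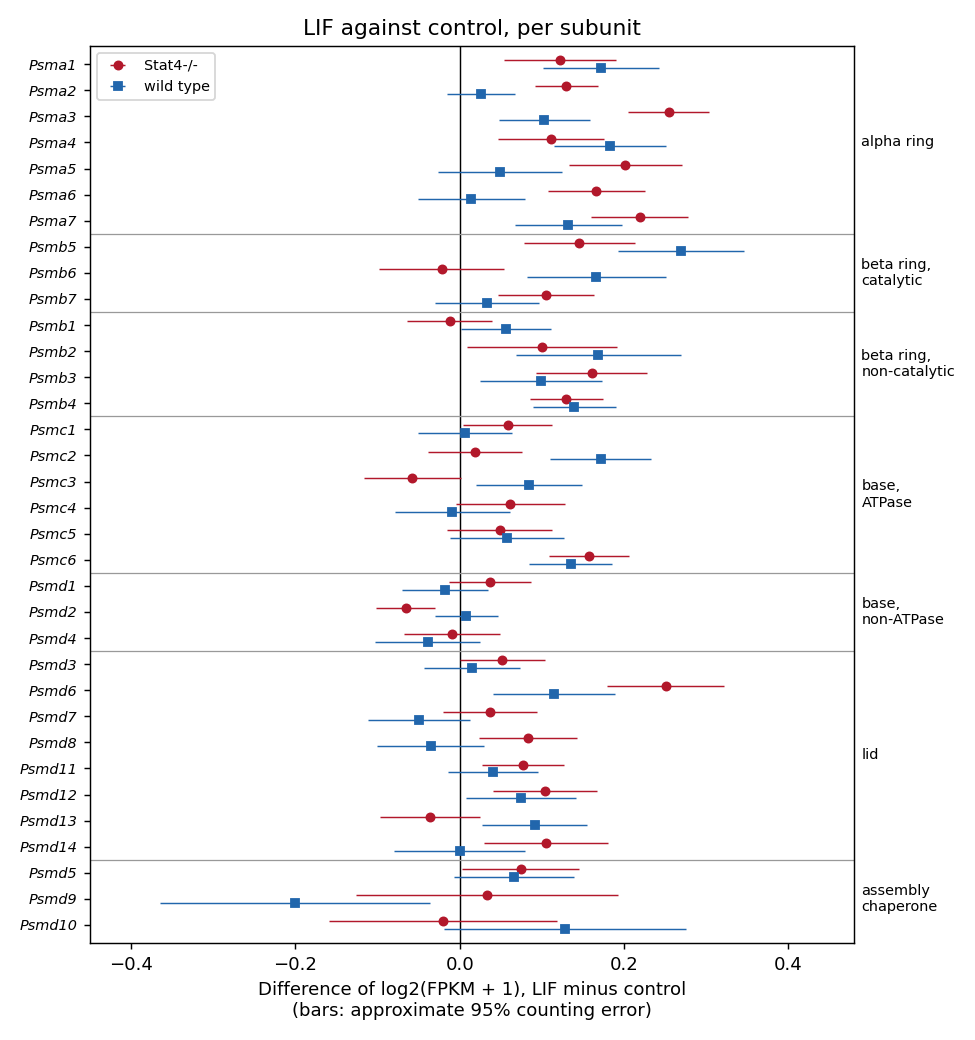
Difference of log2(FPKM + 1) between LIF and control for each member in Stat4-/- (circles) and wild type (squares), with approximate 95% counting error. All 7 alpha genes lie above 0 in both genotypes, 4 of them beyond that error in wild type. Each of the other subgroups, the beta ring included, has values on either side of 0.

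Whether the LIF difference depends on genotype could not be tested, since 4 libraries leave no residual for it. As values, its median over the members was 0.03 (Stat4-/- minus wild type), against -0.01 over all genes, and it was above 0 for 21 of 34, against 47.7% of all genes. A size of 0.32 was reached by 0 of 34 members, against 12.1% of all genes. Psmd9 (0.23), Psma5 (0.15) and Psma6 (0.15) were highest. Psmb6 (-0.19), Psmc2 (-0.15) and Psmd10 (-0.15) were lowest. Psmd9 was at 9.83 FPKM with LIF and 9.58 FPKM without it in Stat4-/-, and at 9.33 FPKM with LIF and 10.9 FPKM without it in wild type. As the lowest member it also carries the largest counting error. Psma5, an alpha gene, was at 118 FPKM with LIF and 103 FPKM without it in Stat4-/-, and at 101.1 FPKM with LIF and 97.7 FPKM without it in wild type. Psmd10 was at 23.1 FPKM with LIF and 23.4 FPKM without it in Stat4-/-, and at 23.5 FPKM with LIF and 21.4 FPKM without it in wild type. For Psmd10 the control library was the higher in Stat4-/- and the LIF library in wild type.

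Transcript length moved with both comparisons. The members' main transcripts are short, with a median of 1162 bases in the core and 1636 bases in the regulatory particle, against 2972 bases over all genes tested with a length. Over all genes, the median LIF coefficient was 0.08 for transcripts of up to 1000 bases and -0.04 for those over 5000 bases. The median genotype coefficient was 0.02 and -0.04 in the same bands. When this trend was removed, a choice made after seeing the data, the median over the core was 0.15 for genotype under LIF and 0.06 without LIF, and 0.10 for LIF in Stat4-/- and 0.07 in wild type. In the regulatory particle the medians were 0.07 and 0.05 for genotype, and 0.04 and 0.00 for LIF, in the same order. Core medians were smaller after removal but above 0, and the part of length in either result was not tested. Of the 11 genotype calls, 6 passed after removal: Psma3, Psma7, Psmb4, Psmb5, Psmd3 and Psmd11.

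**Figure D4:**
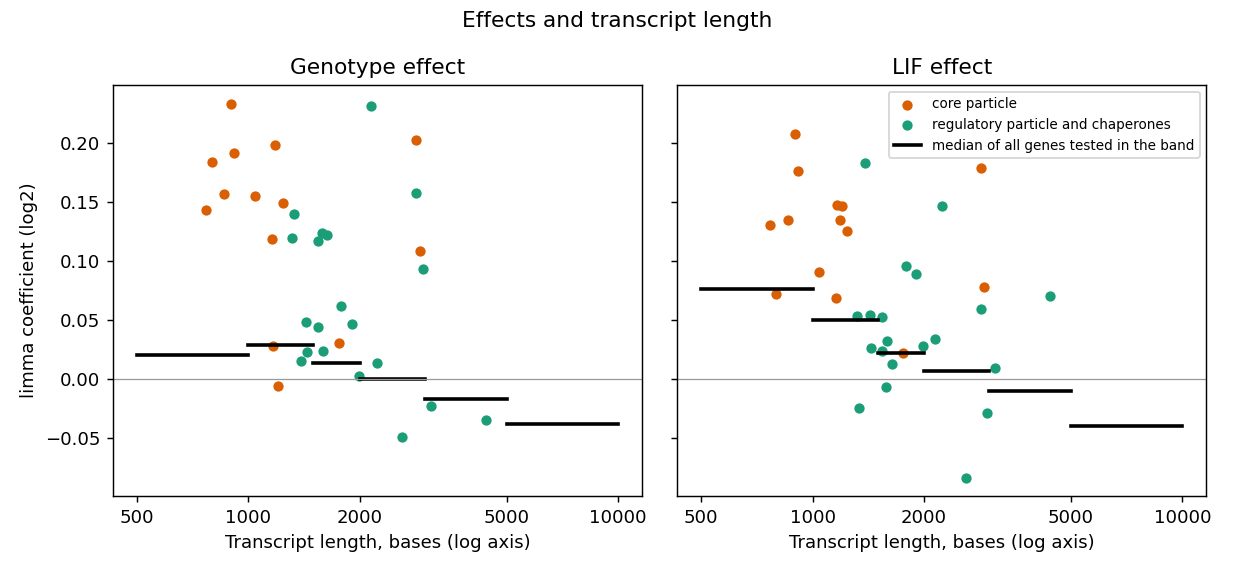
Limma coefficient (log2) of the genotype effect, left, and of the LIF effect, right, against main transcript length (log axis) for each member. Black lines give the median of all genes tested in a length band, which falls from 0.08 to -0.04 for LIF with rising length.

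Other genes of the pathway were described by list. All 5 genes of the inducible catalytic subunits and the PA28 activator were called higher in Stat4-/-, against 7.81% of all genes. Psmb8, the inducible counterpart of Psmb5, rose by 0.93 (SE 0.054, limma adjusted p = 8.96e-07). It was at 80.7 and 70.7 FPKM in Stat4-/- LIF and control, against 43.9 and 34.8 FPKM in wild-type LIF and control, and stood at 49.3% of the Psmb5 level in Stat4-/- LIF and 47.8% in Stat4-/- control, against 30.2% in wild-type LIF and 29.0% in wild-type control. Psmb9 stood at 15.5 and 13.6% of Psmb6 in Stat4-/-, against 7.97 and 6.56% in wild type, and Psmb10 at 37.2 and 36.6% of Psmb7 in Stat4-/-, against 31.01 and 24.8% in wild type, LIF before control. Psmb9 rose by 1.10, Psmb10 by 0.52, and the activator genes Psme1 by 0.43 and Psme2 by 0.55. The genotype calls of Psmb8, Psmb9 and Psme2 passed in 9 of 9 alternative fits, and those of Psmb10 and Psme1 in 8 of 9. Psme2 also rose with LIF by 0.23 (SE 0.041, limma adjusted p = 0.0355). The constitutive gene was the more abundant at each of the 3 positions in all 4 libraries. Of the 5 other subunit and receptor genes of the complete particle, Shfm1, a small lid subunit, rose with LIF by 0.19 (adjusted p = 0.0489) and none was called for genotype. Of all genes, 0.701% were called higher with LIF and 15.5% were called for genotype. The 3 genes of other activators and an inhibitor (Psme3, Psme4 and Psmf1) were called for neither.

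**Figure D5:**
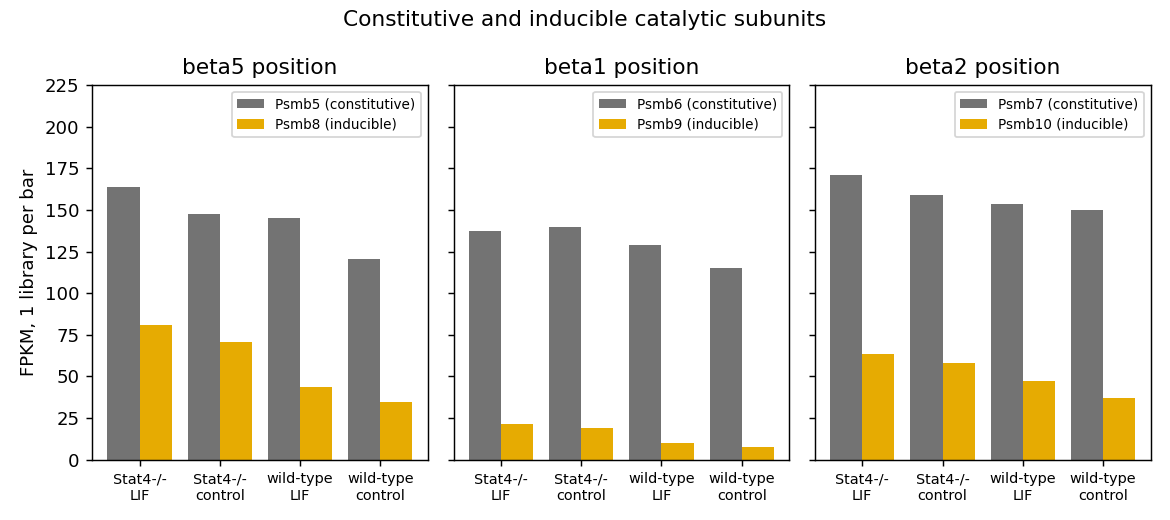
FPKM of the constitutive (grey) and inducible (yellow) catalytic subunit genes at each of 3 positions, with 1 bar per library. Psmb8 stands at 49.3% of Psmb5 in Stat4-/- LIF and at 29.0% in wild-type control, and the constitutive gene is the higher in every library.

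Pomp, which encodes the maturation factor of the core particle, was at 171 and 139.5 FPKM in Stat4-/- LIF and control, against 148 and 131 FPKM in wild-type LIF and control. It was the 1 gene of 5 on the core assembly list to be called, rising by 0.15 in Stat4-/- (SE 0.043, limma adjusted p = 0.0368) and by 0.23 with LIF (SE 0.043, adjusted p = 0.0374). Of all genes, 7.81% were called higher in Stat4-/- and 0.701% higher with LIF. Genotype coefficients on this list ran from -0.13 (Psmg3) to 0.15 (Pomp). Among 7 genes linked to transcription of proteasome genes, 1 was called for genotype, against 7.81% of all genes called higher. Their genotype coefficients ran from -0.14 (Ngly1) to 0.17 (Nfe2l1). The called gene, Nfe2l1, whose product NRF1 activates proteasome genes when the proteasome is inhibited, rose by 0.17 in Stat4-/- (limma adjusted p = 0.0295). It was at 84.2 and 78.8 FPKM in Stat4-/-, against 74.3 and 70.5 FPKM in wild type, LIF before control. The genotype call of Pomp passed in 5 of 9 alternative fits, with a highest limma adjusted p of 0.285, and that of Nfe2l1 in 6 of 9, with a highest of 0.224. The LIF calls of Pomp and Psme2 each passed in 3 of 9 alternative fits, and that of Shfm1 in 1 of 8. The testis subunit gene Psma8 was at 0.080 to 0.29 FPKM and the thymus subunit gene Psmb11 at 0.44 to 0.75 FPKM over the 4 libraries, and neither was tested.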

How the data were processed

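RNA sequencing was available for 4 libraries, 1 per group, from TruSeq libraries of total RNA per the labels' protocols. The series' design text mentions duplicates, and whether a column pools them is not stated. The submitters' processing notes list HISAT, Bowtie2 and the mouse build mm10. For FPKM, program and annotation were not given in the sources used here. Values deposited by the authors are FPKM, per the file headers, in 1 table of 17604 genes with 0 value columns left unused. Of its symbols, 26 had turned into dates, and none is a member.

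Differences were taken here on log2(FPKM + 1) for the 12274 genes whose mean reached 1 FPKM. Limma 3.58.1 in R 4.3.3 fitted genotype and treatment as additive terms with a mean-variance trend, two-sided, with Benjamini-Hochberg adjustment over all genes tested and a threshold of 0.05. The fit has 1 residual degree of freedom and counts the interaction as error. Limma moderated each variance toward the trend over all genes, with 10.22 prior degrees of freedom. Its p-values thus rest mostly on that trend and on these libraries, whose spread may be technical. They do not measure the spread between libraries of a group. Tested on simulated data for the LIF effect (12274 genes), the fit called 54% of genes given a log2 change of 0.3 and 100% of those given 1, and 9 of its 163 calls were false. The simulated noise was independent, normal and drawn at the fit's own smoothed spread, without differences between animals. It therefore does not give the rate of false calls in the real data. The genotype effect was not simulated.

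Transcript lengths, positions and shared 31-base words came from GENCODE M21 (mm10). The length used is that of the principal transcript, or the longest where several qualify, and 371 tested genes had none. Depth was chosen so that low FPKM values of genes with 1 transcript of 300 to 1500 bases fell on whole fragments. The depths obtained were 27.5, 22.8, 21.8 and 24.1 M (mega) fragments for Stat4-/- LIF, Stat4-/- control, wild-type LIF and wild-type control. Of the values used, 58.5, 67.7, 65.0 and 59.9% lay within 0.15 fragments of a whole number, a share raised by that choice, so depths are approximate.

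Members were described by their values, with full values for catalytic genes, called members, the 3 highest and 3 lowest of each contrast and the extremes of each subgroup. The members, gene lists and marker lists were chosen with earlier results of these data known. Alternatives were another pseudocount, 2 other filters, 3 other scalings, 2 other variance models and, added after seeing the data, removal of the transcript length trend and of members with shared sequence. A list of ubiquitin and delivery genes is not reported here.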

Additional observations from a re-analysis of the deposited data

Results flagged for a closer look

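For 11 of the 34 members the LIF library lay above its control in 1 genotype and below it in the other. Over all genes tested, it lay above control in both genotypes for 28.8% and below in both for 29.3%. The remaining genes were opposite or tied, so opposite directions are common and not particular to these members. These differences between the genotypes were not tested, and 0 of the 11 exceeded the approximate counting error in both genotypes. As Stat4-/- minus wild type on the log2 scale, the difference of the LIF effects was -0.19 for Psmb6, -0.0687 for Psmb1, -0.14 for Psmc3, -0.0738 for Psmd2, -0.13 for Psmd13 and -0.15 for Psmd10. It was 0.0703 for Psmc4, 0.0547 for Psmd1, 0.0865 for Psmd7, 0.12 for Psmd8 and 0.23 for Psmd9. In Psmb6 the LIF effect was -0.02 in Stat4-/- and 0.17 in wild type, and in Psmd9 it was 0.03 in Stat4-/- and -0.20 in wild type. Psmd9 shares 26.6% of its 31-base words with another annotated gene, most of them with Gm26745, which overlaps it on the opposite strand.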

How the results depend on the processing

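The count of members called for genotype was 11, and 10 to 11 under another pseudocount, a stricter filter at 5 FPKM, scaling by median of ratios or upper quartile and a robust fit. It was 2 without a filter on low values, 4 with quantile normalization, 0 without a mean-variance trend and 6 with the length trend removed; the cause was not tested. Over all genes these 4 alternatives gave 764, 1357, 251 and 1619 calls, against 1902. Without the members that share over 20% of their words, 26 members were left and 8 of them were called. The LIF count was 0 of 34 in all fits, while the LIF calls over all genes ran from 1 to 129, against 101. Median differences over the members stayed above 0 in all 5 contrasts under the 8 alternatives for which they were taken. All 34 members entered, except where those with shared sequence were removed and 26 were left. The 2 other filters left the members and their values unchanged, so those medians could not differ. The range was 0.08 to 0.12 for genotype under LIF and 0.05 to 0.09 without LIF. For LIF the range was 0.06 to 0.10 in Stat4-/- and 0.03 to 0.06 in wild type. The wild-type LIF median over the regulatory particle turned to -0.00039 with quantile normalization. The core median of the difference of LIF effects turned to -0.00964 without members that share over 20% of their words. No paired analysis was possible because the groups share 1 replicate number only, so the number could not serve as a block. The additive fit does compare LIF with control within genotype. Leaving out a library leaves the additive fit no residual, so this was not run. The approximate 95% counting error of a difference of single libraries was 0.06 on the log2 scale at the median member, and the error between libraries of a group is unknown.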
